A study of Mus musculus with 15 samples.

Results

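The platelet chemokine genes Pf4 and Ppbp were followed in every library of RNA from blood-derived extracellular vesicles (EVs) of wild type (WT), dystrophic and hypertrophic mice. The genes were found by their symbols, which are 2 of the 43472 gene rows in each library. The rule that names them uses no measured value, though earlier results of these data were known when it was set. Bulk RNA-seq counts of 15 libraries were used: WT mice gave 3, and dystrophic and hypertrophic mice gave 6 each. The WT mice were C57BL/6, and the dystrophic mice lacked Sgcb, the gene for beta-sarcoglycan. The hypertrophic mice are labelled MAGIC F1, an engineered hepatocyte growth factor derivative. The study isolated EVs from both Magic-F1 and Mstn-null (myostatin-deficient) mice, but its RNA sequencing methods name the Mstn-null mice. Mice were between 3 and 6 months old, EVs from 2 to 3 mice were pooled for a sample, and amplification of the RNA preceded library preparation. The sample labels name serum and the series description names plasma as the source of the EVs. Serum is what remains after clotting, which activates platelets.

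Pf4 encodes platelet factor 4, also named CXCL4, and Ppbp encodes pro-platelet basic protein, the precursor from which beta-thromboglobulin and the neutrophil-activating chemokine CXCL7 are cut. Both are small CXC chemokines that megakaryocytes make and pack into alpha granules, and platelets, which have no nucleus, inherit the proteins together with some of the messenger RNA. Activated platelets release the granules and also shed vesicles. CXCL7 attracts neutrophils through CXCR2, whereas platelet factor 4 binds heparin and other glycosaminoglycans and is a weak attractant of neutrophils.

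The genes are neighbours on chromosome 5 and are read in the same direction (genome build GRCm38, annotation GENCODE M21). Ppbp (ENSMUSG00000029372.7) lies at chr5:90768518-90770063 on the plus strand and has 3 exons in 1 annotated transcript. Pf4 (ENSMUSG00000029373.7) lies at chr5:90772435-90773383 on the plus strand, 2371 bases after the end of Ppbp, and its main transcript also has 3 exons. The exons cover 1083 bases in Ppbp and 721 bases in Pf4. The coding sequences are shown, from the CXC motif to the stop codon, because reads of related neighbours could be assigned to the wrong gene. Capitals mark the codons of the CXC motif, a cysteine, any residue and a cysteine, which gives this chemokine family its name.
Pf4 from the CXC codons on, ENSMUST00000031320.7: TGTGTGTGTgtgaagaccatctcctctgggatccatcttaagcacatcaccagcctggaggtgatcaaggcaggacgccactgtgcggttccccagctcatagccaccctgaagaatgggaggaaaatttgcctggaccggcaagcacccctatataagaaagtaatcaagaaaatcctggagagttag
Ppbp from the CXC codons on, ENSMUST00000031319.7: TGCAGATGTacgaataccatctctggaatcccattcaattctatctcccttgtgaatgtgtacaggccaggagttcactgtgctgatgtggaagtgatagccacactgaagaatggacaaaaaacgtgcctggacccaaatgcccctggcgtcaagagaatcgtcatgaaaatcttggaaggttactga

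Both stretches are 189 bases long. The whole coding sequence is 318 bases long in Pf4 and 342 bases in Ppbp, and 65.7% of the 306 aligned columns without a gap are identical. No stretch of 50 bases was shared between the exons of these genes or with the exons of any other gene in the annotation, out of 671 such stretches in Pf4 and 1034 in Ppbp. Among annotated transcripts, a read of that length with no mismatch can therefore match only 1 of these genes. Other genomic sequence and matches with mismatches were not searched.

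The stretches around the start sites are shown because the neighbouring genes, which both belong to the platelet, differ there. Each runs from 250 bases before to 50 bases after the annotated start (RefSeq, build GRCm38.p6, plus strand), at chr5:90772185-90772484 for Pf4 and at chr5:90768268-90768567 for Ppbp. Capitals mark matches to the ETS word GGAAG, to the GATA site (AGATAA, the variant AGATAG, and the same with a T in first place, TGATAA and the variant TGATAG) and to the TATA box TATAAA, each searched on both strands. Other forms of these sites were not searched.
Pf4 promoter: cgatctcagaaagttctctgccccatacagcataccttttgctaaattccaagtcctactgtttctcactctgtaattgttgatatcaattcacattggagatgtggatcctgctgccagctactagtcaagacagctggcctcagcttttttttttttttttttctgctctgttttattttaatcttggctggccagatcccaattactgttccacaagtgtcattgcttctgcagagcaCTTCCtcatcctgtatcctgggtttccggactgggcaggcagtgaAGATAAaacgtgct
Ppbp promoter: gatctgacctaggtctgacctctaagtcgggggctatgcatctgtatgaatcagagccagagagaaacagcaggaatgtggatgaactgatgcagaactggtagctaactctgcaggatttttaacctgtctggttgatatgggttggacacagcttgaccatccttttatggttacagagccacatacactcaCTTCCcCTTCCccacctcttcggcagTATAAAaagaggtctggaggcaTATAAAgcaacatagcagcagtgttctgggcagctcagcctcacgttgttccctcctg

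The Pf4 window held 1 GGAAG word, 9 bases before the start, and 1 GATA word, 36 bases after it, and no TATAAA. The Ppbp window held 2 GGAAG words, 56 and 50 bases before the start, and 2 TATAAA words, 30 and 8 bases before it, and no GATA word. Among 32851 promoters of the same length, 71.4% held GGAAG, 29.8% a GATA word and 13.6% TATAAA, and a match is a description of letters.

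Libraries differed widely in depth. WT replicate 1 was the shallowest with 27227 reads assigned to genes and dystrophic replicate 6 the deepest with 32563362, with medians of 601506, 2419660 and 3513267 in the WT, dystrophic and hypertrophic groups. No pair of libraries agreed within sampling noise. Mstn had no read in any library. Sgcb had 695 reads in hypertrophic replicate 3 and 0 in the other 14 libraries, the WT-derived ones included. In 6 cases (replicates 4 to 6 of the dystrophic and 1 to 3 of the hypertrophic group) the titles and the deposited tables carry each other's library numbers across these conditions. Groups follow the sample each table was deposited for, and values for the 9 other libraries alone and with the conditions of these 6 exchanged are given together after the ratio of the genes. Hypertrophic replicate 3, which held the Sgcb reads, is 1 of the 6, and the exchange would place it among the Sgcb-null libraries. Counts per gene do not show which exons the reads cover. Title numbers fall into a lower series (WT, dystrophic replicates 1 to 3 and hypertrophic replicates 1 to 3) and a higher series. By the numbers on the tables, all 6 hypertrophic libraries fall into the higher series and all others into the lower, so that by those numbers series and condition cannot be told apart.

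Pf4 and Ppbp were among the most abundant transcripts in each library. Per exon length, each ranked between 6 and 20 among the genes of known length, and the median rank was 8 for each over the 15 libraries. Together they took 2.23% ± 0.460 of the reads on genes in WT-derived EVs (SD, n = 3), 1.23% ± 0.361 in dystrophic-derived EVs (SD, n = 6) and 2.22% ± 0.547 in hypertrophic-derived EVs (SD, n = 6). Levels are given as CPM, the reads of a gene scaled to the same total of reads on genes in each library, and so are shares. In bulk EV RNA, fewer platelet-derived vesicles and less of the transcript in each vesicle cannot be told apart.

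Ppbp was lowest in dystrophic-derived, intermediate in WT-derived and highest in hypertrophic-derived EVs. In WT-derived EVs it measured 11422 CPM in replicate 1, 12377 in replicate 2 and 9460 in replicate 3. Over the 6 dystrophic-derived libraries the lowest level was 4857, the median 6901 and the highest 8936 CPM. Over the 6 hypertrophic-derived libraries they were 11370, 16686 and 20308 CPM. Each dystrophic-derived library lay below each WT-derived and each hypertrophic-derived library, while the lowest hypertrophic-derived library, replicate 4, fell among the WT-derived ones. Group means were 11086 ± 1488 CPM in WT (SD, n = 3), 6964 ± 1504 in dystrophic (SD, n = 6) and 16101 ± 3242 in hypertrophic (SD, n = 6), so the hypertrophic mean was 2.31 times the dystrophic mean, and the dystrophic mean was 0.628 times the WT mean.

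Pf4 followed another order. It measured 15242 CPM in WT replicate 1, 10349 in replicate 2 and 8033 in replicate 3. WT replicate 1 is the shallowest library, and its 415 Pf4 reads give a 95% Wilson interval of 13854 to 16767 CPM, which covers counting error only since amplified reads are not independent molecules. The lowest, median and highest levels were 2029, 3618 and 13065 CPM over the dystrophic-derived libraries. They were 2596, 6787 and 9258 CPM over the hypertrophic-derived libraries. WT-derived EVs held the highest mean, 11208 ± 3681 CPM (SD, n = 3), and the other conditions, with 5329 ± 4254 for dystrophic and 6133 ± 2489 for hypertrophic EVs (SD, n = 6 each), overlapped over most of their range. Dystrophic replicate 4, at 13065 CPM, stood above the other 5 dystrophic-derived libraries, which reached at most 7361 CPM. Without it the dystrophic mean was 3782 ± 2161 CPM (SD, n = 5). Over all 15 libraries the highest and lowest levels differed 7.51-fold for Pf4 and 4.18-fold for Ppbp.

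**Figure D1:**
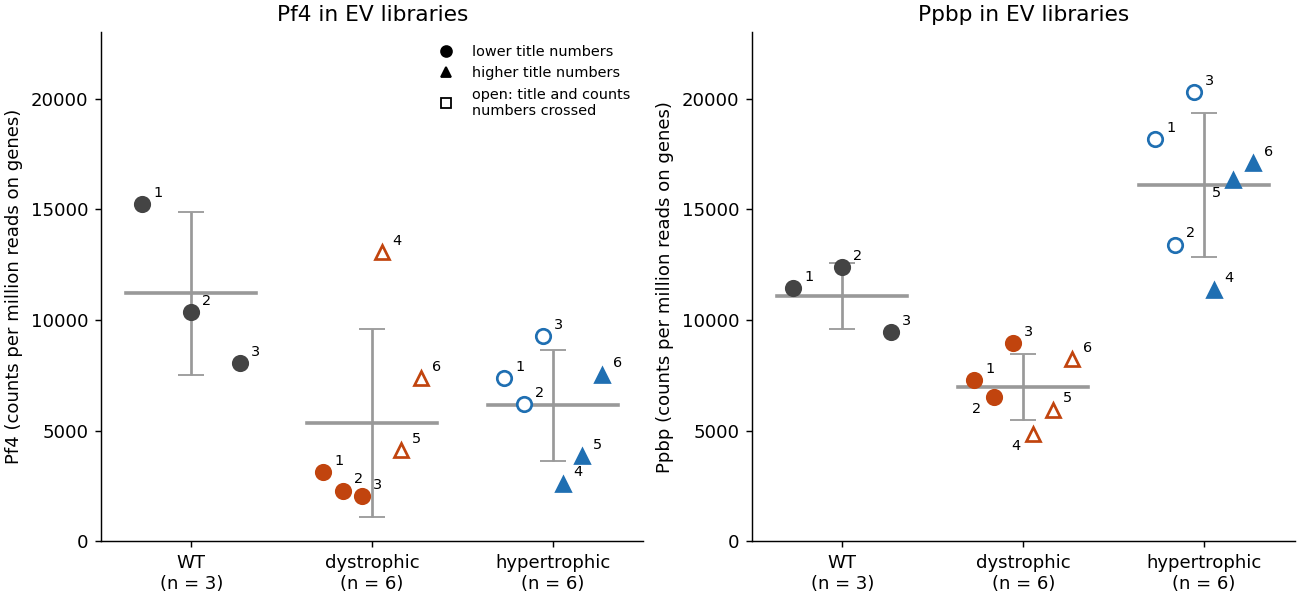
Level of Pf4 (left) and Ppbp (right) in CPM, 1 symbol a library with its replicate number. Circles and triangles are libraries with lower and higher title numbers, open symbols are the 6 libraries with crossed numbers, and grey lines and bars are the group mean ± SD. All 6 dystrophic-derived libraries lie at or under 8936 CPM for Ppbp and all 6 hypertrophic-derived libraries at or above 11370 CPM, whereas for Pf4 the groups overlap.

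To test these differences, the genes were fitted with all others in edgeR's quasi-likelihood test. Of 6887 genes tested, 2 (0.0290%) passed a Benjamini-Hochberg adjusted p of 0.05 for hypertrophic against WT, 1 (0.0145%) for dystrophic against WT and 1 (0.0145%) for hypertrophic against dystrophic. Neither Pf4 nor Ppbp was among them. The comparisons against WT share the 3 WT-derived libraries. The labels name no separate mice or litters for the libraries, so the p-values refer to these samples. In the fit, the spread between libraries beyond counting error (biological coefficient of variation) was 1.38 for Pf4 and 1.36 for Ppbp. Both values equal the trend over all genes by level, so edgeR's SEs and p-values rest largely on that trend. They do not measure the spread of Pf4 or Ppbp alone.

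For Ppbp the log2 fold change of hypertrophic-derived over dystrophic-derived EVs was 0.94 (SE 0.36, unadjusted p = 0.00878, adjusted p = 0.123 by edgeR's quasi-likelihood test). At an unadjusted p under 0.05, 39 genes (0.566%) were higher in this comparison, Ppbp among them, and 784 genes (11.4%) were lower. The median log2 fold change of all genes tested was −0.52. Most of these genes lacked a read in at least 1 library, and 169 had a read in all 15. On the CPM scale Ppbp was the only gene of the 6887 (0.0145%) with a higher level in each hypertrophic-derived than in each dystrophic-derived library. Among the 169 genes with a read in all 15 libraries the share was 0.592%. The dependence on scaling was large. With library sizes alone and no TMM factors (trimmed mean of M values, the scaling of the edgeR fit), the log2 fold change was 1.20 with an edgeR adjusted p of 0.0610, and on TMM-scaled CPM the groups overlapped, with the hypertrophic-derived library higher in 30 of 36 pairs. An exact two-sided permutation test of mean log2(CPM + 1), chosen after the data were seen, gave p = 0.00216, the smallest p that 6 against 6 libraries allow, and 0.883 after adjustment over the 6887 genes. That smallest p was reached by 11 genes.

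Against WT, Ppbp had a log2 fold change of −0.68 in dystrophic-derived EVs (SE 0.43, edgeR adjusted p = 0.433) and of 0.26 in hypertrophic-derived EVs (SE 0.44, edgeR adjusted p = 0.945). Lying below all WT-derived libraries on the CPM scale was shared by 19 genes (0.276%) in the dystrophic comparison. Among the 169 genes with a read in all 15 libraries the share was 4.14%. On TMM-scaled CPM the dystrophic-derived library was higher in 3 of 18 pairs with WT.

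Pf4 had a log2 fold change of −0.96 in hypertrophic-derived over WT-derived EVs (SE 0.52, edgeR adjusted p = 0.430) and of −0.91 in dystrophic-derived over WT-derived EVs (SE 0.52, edgeR adjusted p = 0.433). The corresponding medians of all genes were 0.66 and 1.38, in the other direction. These medians varied with the libraries used. Without WT replicate 2 they were 5.96 and 8.15, and in the 9 libraries with matching numbers −0.12 and 0.53. On CPM, 1 of 18 hypertrophic and WT pairs had the higher level in the hypertrophic-derived library. On TMM-scaled CPM the hypertrophic-derived libraries, at 1423 to 9638, all lay below the WT-derived ones, at 10880 to 14460, as did 29 of the 6887 genes (0.421%). Between hypertrophic-derived and dystrophic-derived EVs the Pf4 log2 fold change was −0.05 (SE 0.44, edgeR adjusted p = 0.9998).

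The ratio of Pf4 to Ppbp reads within a library does not depend on scaling. It was 1.33, 0.836 and 0.849 in WT replicates 1, 2 and 3. It ranged from 0.227 to 2.69 in dystrophic-derived libraries, with a median of 0.560, and from 0.228 to 0.462 in hypertrophic-derived libraries, with a median of 0.424. All 6 hypertrophic-derived libraries, 3 of 6 dystrophic-derived and 0 of 3 WT-derived libraries had fewer than 50% as many Pf4 as Ppbp reads. Pf4 reads outnumbered Ppbp reads in 2 libraries, WT replicate 1 and dystrophic replicate 4. These libraries had reads of few genes, 797 and 1103, against 8968 in dystrophic replicate 6. The lowest hypertrophic-derived ratios, in replicates 4 and 5, also came with few genes, 1373 and 814. Dystrophic replicate 3, with the lowest ratio of all, had 2415, and hypertrophic replicate 3, with a ratio of 0.456, had 1967. The part of gene detection in the ratio was not tested. Divided by exon length, the Pf4 level exceeded the Ppbp level in 3 of 3 WT-derived, 3 of 6 dystrophic-derived and 0 of 6 hypertrophic-derived libraries.

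On the log2 scale the mean ratio was −0.03 ± 0.38 for WT (SD, n = 3), −0.69 ± 1.25 for dystrophic and −1.49 ± 0.48 for hypertrophic EVs (SD, n = 6 each). The hypertrophic ratio was 0.362 times the WT ratio, a log2 difference of −1.46, and the libraries did not overlap. An exact two-sided permutation test gave p = 0.0238, the smallest that 6 against 3 libraries allow, and 0.0714 after Benjamini-Hochberg adjustment over the 3 comparisons. This ratio therefore could not pass the adjusted threshold unless other comparisons also reached small p-values. The dystrophic ratio differed from WT by −0.66 (exact permutation p = 0.429, adjusted p = 0.429), and the hypertrophic from the dystrophic ratio by −0.80 (exact permutation p = 0.184, adjusted p = 0.276). Without dystrophic replicate 4 these differences were −1.09 (exact permutation, adjusted p = 0.161) and −0.38 (exact permutation, adjusted p = 0.368).

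**Figure D2:**
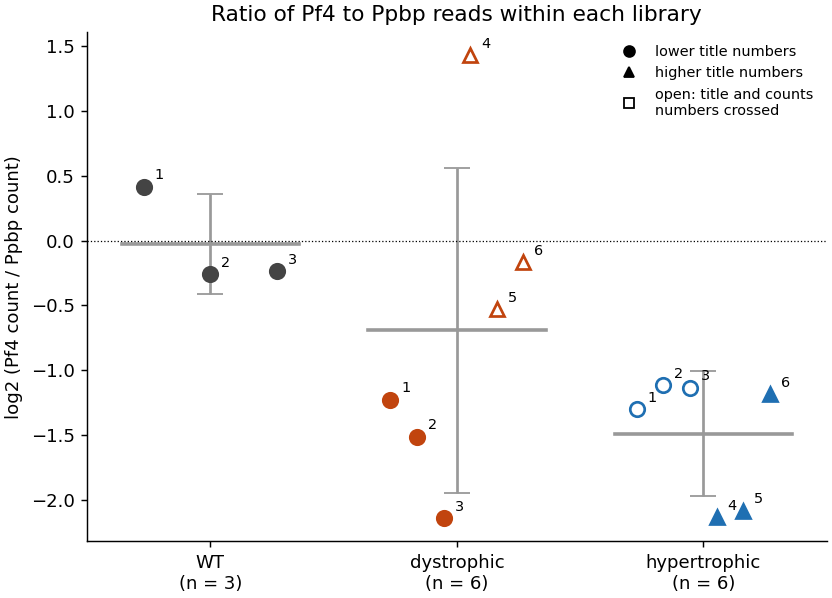
The log2 ratio of Pf4 to Ppbp counts in each library, with symbols as in the plot of levels, the group mean ± SD in grey and a dotted line at equal counts. The hypertrophic-derived libraries lie between −2.13 and −1.11, all under the WT-derived ones, and dystrophic replicate 4, at 1.43, is the highest of all.

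For Pf4 and for its ratio to Ppbp, the dystrophic-derived libraries fell apart by title number series. The dystrophic-derived libraries of the higher series and the hypertrophic-derived ones of the lower series are those with crossed numbers. Within these conditions, series and crossed numbers therefore cannot be told apart. In the lower series Pf4 averaged 2477 ± 569 CPM for dystrophic and 7611 ± 1543 CPM for hypertrophic EVs (SD, n = 3 each). In the higher series the order turned, with 8181 ± 4529 CPM for dystrophic and 4656 ± 2561 CPM for hypertrophic EVs (SD, n = 3 each). Ppbp kept its order in both series, with 7579 ± 1237 against 17289 ± 3533 CPM in the lower and 6348 ± 1729 against 14914 ± 3093 CPM in the higher series. The mean log2 ratio was −1.63 for dystrophic and −1.18 for hypertrophic EVs of the lower series, and 0.24 and −1.80 in the higher series. The difference between series was not tested, and the higher series holds no WT-derived library.

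In the 9 libraries with matching numbers, Ppbp ranged from 6513 to 8936 CPM in dystrophic-derived, from 9460 to 12377 in WT-derived and from 11370 to 17069 in hypertrophic-derived EVs (n = 3 each). The Pf4 to Ppbp ratio was at most 0.428 in the dystrophic-derived and at most 0.441 in the hypertrophic-derived libraries of this set, and at least 0.836 in the WT-derived ones. Fitted on these 9 libraries, the log2 fold change of Ppbp was 0.80 for hypertrophic over dystrophic (SE 0.52, edgeR adjusted p = 0.99996), −0.86 for dystrophic over WT (SE 0.52, edgeR adjusted p = 0.854) and −0.068 for hypertrophic over WT (SE 0.52). For Pf4 the change from WT was larger than with all libraries, at −2.31 in dystrophic (SE 0.70, unadjusted p = 0.000944, adjusted p = 0.713 by edgeR) and −1.49 in hypertrophic EVs (SE 0.68, edgeR adjusted p = 0.605). The log2 ratio of Pf4 to Ppbp differed from WT by −1.60 in dystrophic and by −1.77 in hypertrophic EVs, each with an exact permutation p of 0.1, the smallest that 3 against 3 libraries allow, and by −0.17 between hypertrophic and dystrophic EVs.

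With the conditions of the 6 crossed libraries exchanged, the log2 fold changes of Ppbp lay between −0.28 and −0.013, and the ratio stood furthest from WT in the dystrophic group. The Ppbp log2 fold change became −0.26 for hypertrophic over dystrophic (edgeR adjusted p = 0.9997), −0.28 for hypertrophic over WT (edgeR adjusted p = 0.968) and −0.013 for dystrophic over WT (SE 0.45). For Pf4 it became −0.72 for hypertrophic over WT (edgeR adjusted p = 0.540), −1.20 for dystrophic over WT (edgeR adjusted p = 0.466) and 0.48 for hypertrophic over dystrophic (edgeR adjusted p = 0.9997). The log2 ratio then differed from WT by −0.75 in hypertrophic EVs (exact permutation p = 0.405, adjusted p = 0.405) and by −1.38 in dystrophic EVs (exact permutation p = 0.0238, adjusted p = 0.0714), and by 0.63 between hypertrophic and dystrophic EVs (exact permutation p = 0.303, adjusted p = 0.405).

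Across libraries the levels of these neighbouring genes were not closely tied. Over all 15 libraries their CPM gave Pearson's r = 0.137 (permutation p = 0.624) and Spearman's rho = 0.261 (permutation p = 0.347). Without WT replicate 1 and dystrophic replicate 4, r was 0.526 (permutation p = 0.0663). Within hypertrophic-derived EVs r was 0.821 and rho 0.886 (n = 6, exact permutation p = 0.0486 and 0.0333, adjusted p = 0.377 for each). Within dystrophic-derived EVs r was −0.572 and rho −0.600 (n = 6, exact permutation p = 0.244 and 0.242). In the lower and higher title series r was 0.452 (n = 9, exact permutation p = 0.223) and −0.405 (n = 6, exact permutation p = 0.429). Adjustment was over 60 correlation values, in the relations of Pf4 and Ppbp with each other, with platelet markers and with depth.

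**Figure D3:**
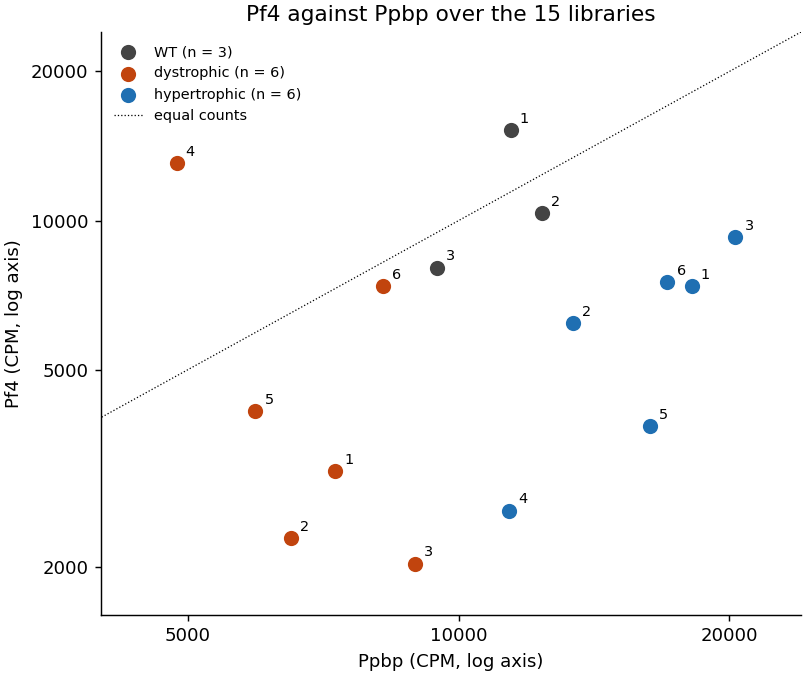
Pf4 against Ppbp in CPM, both on log axes, 1 point a library with its replicate number and coloured by condition. Points under the dotted line of equal counts have more Ppbp than Pf4 reads, which holds for 13 of the 15 libraries, and the hypertrophic-derived points form a band to the right of the dystrophic-derived ones.

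The other genes of the pathway were counted by their roles. In the same CXC chemokine cluster of chromosome 5, which spans 146579 bases from Cxcl5 to Cxcl2, the 5 other genes had few reads. They had 5488 reads in all libraries together, against 1286362 reads for Pf4 and Ppbp, and a read in 10 of 75 pairs of gene and library. Cxcl5 and Cxcl2, which encode neutrophil attractants, reached at most 123 and 237 CPM in any library. Outside the cluster, Cxcl12, the ligand of CXCR4 that holds blood stem cells in the marrow, had reads in 10 libraries and at most 254 CPM. Of the 12 other CXC ligands, 5 could be tested and 0 passed the adjusted threshold of edgeR in any comparison.

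**Figure D4:**
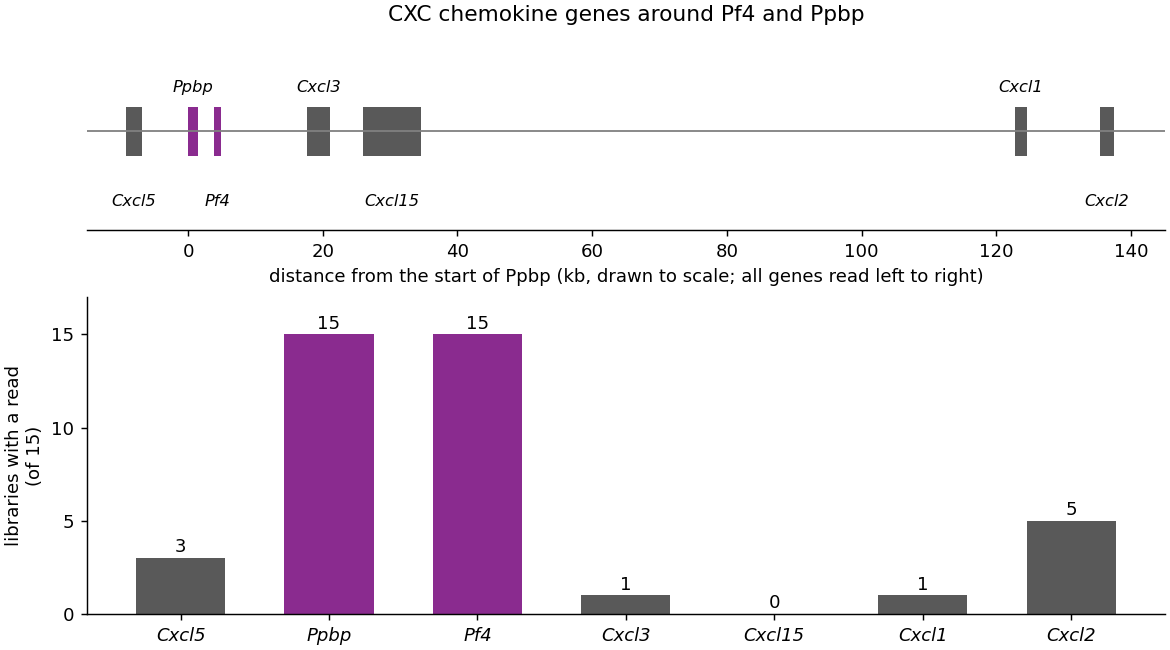
Map of the CXC chemokine genes around Ppbp and Pf4, with distance from the start of Ppbp in kb (top), and the number of the 15 libraries with at least 1 read of each gene (bottom). Ppbp and Pf4, in purple, have reads in all 15 libraries and the others in 0 to 5.

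Among other ligands that platelets release, Ccl5, a T-cell attractant also stored in alpha granules, had reads in 14 libraries with a mean of 497 CPM. Its level was above that of each WT-derived library in each dystrophic-derived library, as for 33 of all genes tested (0.479%), with an edgeR adjusted p of 0.433. Hypertrophic-derived EVs were alike, with a median of 351 CPM against 343 in dystrophic-derived EVs. Their lowest library, at 117 CPM, lay just under the highest WT-derived one, at 121. The library without a Ccl5 read was WT-derived. Transcripts of the receptors were scarce. Cxcr2, the main receptor of CXCL7, had reads in 2 libraries, Cxcr1 in 0 and Cxcr3, reported to bind platelet factor 4, in 1. Itgb2, a leukocyte integrin subunit, was the most frequent of the 9 genes of this list, with reads in 12 libraries and a mean of 129 CPM.

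Of the genes for granule packaging, Srgn had reads in all 15 libraries with a mean of 1170 CPM. It encodes serglycin, the proteoglycan to which platelet factor 4 binds in the granule. Its log2 fold change was −0.48 between hypertrophic-derived and dystrophic-derived EVs (SE 0.93, edgeR adjusted p = 0.9998). Vamp8, a granule fusion protein, had reads in 11 libraries, and Nbeal2, which alpha granule formation requires, in 0. Among megakaryocyte transcription factors Nfe2, needed for platelet release, had reads in all 15 libraries with a mean of 345 CPM, and Ets1 in 12 with a mean of 415 CPM. Of the 7 packaging genes 5 were tested, and of the 10 transcription factors 9, and 0 passed the adjusted edgeR threshold in any comparison.

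The platelet label was checked with 20 other platelet marker genes, which all had reads in each condition. The most abundant were Nrgn, Plek, Rgs18 and Clec1b, which encode neurogranin, pleckstrin, a regulator of G protein signalling and the receptor CLEC-2. Their mean levels were 6359, 2493, 2356 and 1340 CPM. The summed level of the 20 markers ranged from 11887 to 22659 CPM in WT-derived, from 6946 to 21357 in dystrophic-derived and from 16099 to 36249 in hypertrophic-derived EVs, with medians of 19907, 11657 and 20950. Between hypertrophic-derived and dystrophic-derived EVs, 18 of 20 markers had a log2 fold change above 0, and 0 of 20 passed the adjusted edgeR threshold. Their median was 0.77, against −0.52 for all genes tested, most of which lacked reads in some library.

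The platelet markers thus moved with Ppbp, and their part in its difference was not tested. Ppbp followed their summed level with r = 0.768 (permutation p = 0.00067, adjusted p = 0.0150) and rho = 0.732 (permutation p = 0.00243, adjusted p = 0.0364) over the 15 libraries, both being shares of the same library total. Without hypertrophic replicates 1 and 3, r was 0.598 (permutation p = 0.0324). Within conditions r was 0.110 in dystrophic-derived (n = 6, exact permutation p = 0.844) and 0.649 in hypertrophic-derived EVs (n = 6, exact permutation p = 0.158), and neither passed the test. In the lower title series r was 0.931 (n = 9, exact permutation p = 0.000595, adjusted p = 0.0150) and in the higher 0.507 (n = 6, exact permutation p = 0.289). Over the 15 libraries Pf4 followed the markers less closely, with r = 0.358 (permutation p = 0.188) and rho = 0.450 (permutation p = 0.0938). The difference between these correlations was not tested. Without WT replicate 1 and dystrophic replicate 4, r for Pf4 was 0.572 (permutation p = 0.0399). Its r was 0.617 within dystrophic-derived (n = 6, exact permutation p = 0.197) and 0.420 within hypertrophic-derived EVs (n = 6, exact permutation p = 0.406). Divided by the summed markers, Ppbp ranged from 0.501 to 1.06 in hypertrophic-derived, from 0.323 to 0.938 in dystrophic-derived and from 0.546 to 0.796 in WT-derived EVs, and all groups overlapped.

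**Figure D5:**
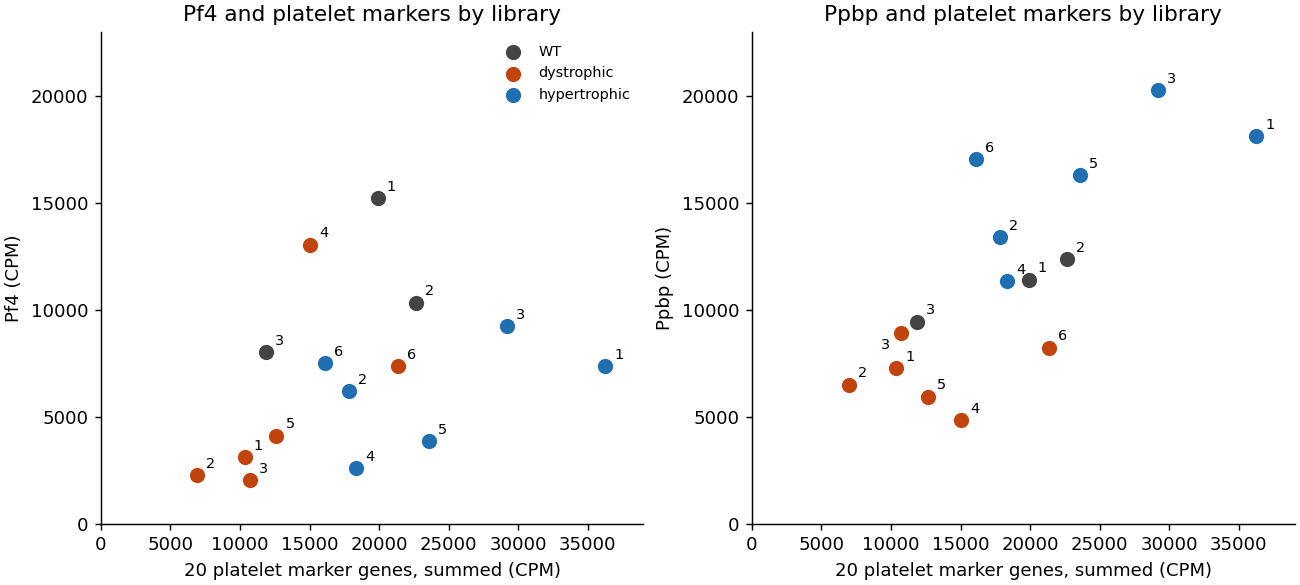
Pf4 (left) and Ppbp (right) against the summed level of 20 platelet marker genes, all in CPM, 1 point a library with its replicate number. Ppbp rises with the markers over the 15 libraries (r = 0.768), while Pf4 is scattered (r = 0.358), with WT replicate 1 and dystrophic replicate 4 high for their marker level.

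Markers of other blood cells were also present. The 9 erythroid markers with a row summed to medians of 63371, 78535 and 48952 CPM in WT-derived, dystrophic-derived and hypertrophic-derived EVs. Hbb-bs, a beta-globin chain of hemoglobin, fell in hypertrophic-derived against dystrophic-derived EVs by 1.01 on the log2 scale (SE 0.20, edgeR adjusted p = 0.00306) and was the only gene of all these lists to pass. This call depended on the setting and on single libraries. Of 24 alternatives, 10 lost it, and with the crossed libraries exchanged the log2 fold change was 0.12 (edgeR adjusted p = 0.9997). The call was lost without dystrophic replicate 1, 2, 4 or 5 or hypertrophic replicate 1 or 6, each left out alone, with log2 fold changes of −1.05 to −0.88 and edgeR adjusted p-values of 0.103 to 0.206. It was also lost with every gene of at least 1 count tested (−1.06, edgeR adjusted p = 0.0836), in the 9 libraries with matching numbers (−1.03, edgeR adjusted p = 0.726) and by DESeq2 (−0.74, adjusted p = 0.9999). Reads of the near-identical beta-globin genes may be split between copies. Hbb-bs takes up part of the total to which CPM refer, and its part in the Ppbp difference was not tested. With mitochondrial and hemoglobin genes left out of the total, Ppbp measured 12903 to 25530 CPM in hypertrophic-derived and 7112 to 10928 in dystrophic-derived EVs. Summed markers of neutrophils, lymphocytes, monocytes and macrophages, and endothelial cells reached at most 1836, 955, 3432 and 1102 CPM in any library, and those of skeletal muscle at most 316.

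Transcripts of hepatocytes, the main cells of the liver, were uneven between conditions. The 6 markers summed to 0 to 65.8 CPM in WT-derived (median 6.65), 0 to 156 in dystrophic-derived (median 30.7) and 0 to 2181 in hypertrophic-derived EVs (median 478). Alb, which encodes albumin, had reads in 1 of 3 WT-derived, 3 of 6 dystrophic-derived and 3 of 6 hypertrophic-derived libraries, and Ttr, the gene of transthyretin, in 0, 0 and 4. Of 5 markers tested for hypertrophic against dystrophic, 3 (Apoa1, Apoa2 and Ttr) were higher at an unadjusted edgeR p under 0.05 and 0 passed adjustment. Of all 6887 genes tested, 39 (0.566%) were higher at that p. Apoa1 and Ttr had reads in 0 and Apoa2 in 1 of the 6 dystrophic-derived libraries, so these values rest on missing reads. The median summed level of the hepatocyte markers was highest in the condition with the highest Ppbp mean, and their part in the Ppbp difference was not tested.

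The genes whose levels ordered the 15 libraries most like Pf4 and Ppbp were different ones. Among 675 genes with a read in at least 12 libraries, Spearman's rho with Pf4 was highest for Tmsb4x (0.939), which encodes the actin-sequestering thymosin beta-4, and for Gng11 (0.900), a G protein gamma subunit. Atp6v0e, Derl1 and Bicd2 followed with 0.821, 0.815 and 0.811. For Ppbp the highest were Dnajb4 (0.832), a co-chaperone, Prkar2b (0.814), a regulatory subunit of protein kinase A, B2m (0.807), the light chain of MHC class I, Zyx (0.804), an adhesion protein, and Odc1 (0.789), an enzyme of polyamine synthesis. Ppbp ranked 128 for likeness to Pf4, and Pf4 ranked 165 for likeness to Ppbp. These values describe the same 15 libraries and share their totals.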

How the data were processed

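EV RNA from 15 samples was preamplified, and the reads were aligned by the authors with TopHat to mm10. HTSeq and DESeq are named in the submitters' processing notes. The authors deposited raw counts per gene symbol, without normalization. The 5 summary rows of each table were left out. CPM were computed over the 43472 gene rows, and 39483 symbols matched GENCODE M21.

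All 15 libraries entered 1 edgeR fit (4.0.16, R 4.3.3) with TMM factors, its expression filter, the quasi-likelihood test and Benjamini-Hochberg adjustment, threshold 0.05. The step was tested on simulated data with less spread between libraries than the fit found here, which does not show how it performs at this spread. Ratios and correlations were tested by permutation (scipy 1.17.1), exact where any group held fewer than 10 libraries. Intervals are Wilson intervals. Named genes were Pf4, Ppbp, list members past the adjusted threshold or among the 4 with the highest mean CPM of a list, the 5 genes most like each by Spearman correlation, and the genes of the cluster. Cxcr1, Cxcr2, Cxcr3 and Nbeal2 were added for their roles after their values were seen. The genes and lists were chosen with earlier results of these data known. Alternatives included DESeq2 (1.42.0).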

Additional observations from a re-analysis of the deposited data

Results flagged for a closer look

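In 10 groups of 6 libraries, the gap between the highest or lowest library and its neighbour was compared with the range of the group, and 2 groups exceeded the 95% critical value of Dixon's test, 0.625. Chance alone flags about 1 in 20 groups. The ratio of Pf4 to Ppbp counts in dystrophic replicate 4 was 2.69, and its gap to the next dystrophic-derived library was 0.730 of the range. On the log2 scale on which the ratio was tested, the same gap was 0.446 of the range and did not exceed the critical value. This library held 13065 CPM of Pf4, the second highest of all 15, and 4857 CPM of Ppbp, the lowest of all. It is 1 of the 6 libraries with crossed numbers, and it had reads of 1103 genes, few for its depth. Dystrophic replicate 6 held 32563362 reads on genes, with a gap of 0.945 of the range, while its Pf4 and Ppbp levels lay within the range of the other dystrophic-derived libraries.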

How the results depend on the processing

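Each log2 fold change of Pf4 and Ppbp was recomputed under 26 alternatives and each ratio difference under 20, of which the exact permutation test on log2(CPM + 1) was chosen after seeing the data. None gave an adjusted p under 0.05, so no call was gained or lost. With the conditions of the 6 crossed libraries exchanged, the direction turned for Ppbp in hypertrophic against WT (−0.28) and against dystrophic (−0.26), and for the log2 ratio in hypertrophic against dystrophic (0.63). With only the 9 libraries of matching numbers, Ppbp in hypertrophic against WT was −0.068. Pf4 in hypertrophic against dystrophic, −0.05 as reported, was 0.21 without TMM, 0.11 with only these conditions fitted, 0.23 with title series as a covariate, 0.48 with crossed libraries exchanged, 0.82 with the 9 matching libraries, 0.24 by DESeq2, 0.41 in the permutation test and −0.26 to 0.32 with 1 library left out. The cause was not tested.

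Without TMM the median log2 fold change of all genes was 1.02, 1.57 and −0.37 for hypertrophic against WT, dystrophic against WT and hypertrophic against dystrophic, compared with 0.66, 1.38 and −0.52. DESeq2 called 1031, 933 and 243 genes in these comparisons where edgeR called 2, 1 and 1, and neither Pf4 nor Ppbp was called. By the permutation test 0 genes passed adjustment, and 54, 87 and 199 had an unadjusted p under 0.05. No paired analysis was possible because the labels give no replicate numbers that the conditions share. With 3 WT-derived libraries, of which 1 holds 27227 reads, small differences from WT were not detectable.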
